A study of Mus musculus with 9 samples.

Results

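The genes described here are the nuclear genes for the proteins of the cytosolic ribosome, measured in mouse heart after myocardial ischemia and reperfusion. They were taken by symbol, as names starting with Rpl or Rps and a number together with Rpsa, Rplp0, Rplp1 and Rplp2. Of the 392 symbols of the count table that start this way, 10 S6 kinases, 289 hyphenated symbols and 7 further annotated pseudogenes were left out. The remaining 86 genes, of 54532 identifiers in all, are annotated as protein coding, with 52 named for the large and 34 for the small subunit. One of them, Rps19bp1, binds a ribosomal protein and is not one itself, and 8 others are paralogs of a classical member (Rpl3l, Rpl7l1, Rpl10l, Rpl22l1, Rpl36al, Rpl39l, Rps27l and Rps27rt). At least 1 read was counted for 85 of the 86, and Rpl10l had no count in any of the 9 libraries.

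RNA was sequenced from the heart tissue of male wild-type C57BL/6J mice aged 8 to 10 weeks, in 3 groups of 3 mice. Sham mice underwent thoracotomy with the suture passed but left untied, and received saline. In MIRI mice the left anterior descending coronary artery was tied for 30 min and the heart was reperfused for 24 h, with saline. GXNI mice underwent the same ischemia and reperfusion and received Guanxinning injection, a plant-derived medicine, at 9 mL/kg through the tail vein. The MIRI and GXNI mice together are called the I/R mice (n = 6). The labels name cardiomyocytes as the cell type, but whole tissue was extracted, and markers of neutrophils, macrophages, fibroblasts and endothelial cells were counted beside those of cardiomyocytes. In such bulk samples, fewer cells of a type and less RNA per cell cannot be told apart. Each p-value measures the spread between these mice only.

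Each ribosome holds 1 copy of nearly every ribosomal protein, so cells make these proteins in step. In mammals this is achieved largely through translation. The mRNAs start with a cytosine followed by a run of pyrimidines, the terminal oligopyrimidine (TOP) motif, through which the kinase complex mTORC1 and the protein LARP1 set how much of the mRNA is translated. In striated muscle Rpl3l, a paralog made in heart and skeletal muscle, takes the place of the ubiquitous Rpl3, which lies near the peptidyl transferase centre of the large subunit.

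The starts are shown for some members named below and for paralogs that differ in their start. They were picked as examples, and starts with a pyrimidine run are more frequent among them than among all members. Promoter sequences of RefSeq (GRCm38.p6) were matched for 66 members with 78 starts. The windows hold 10 bases before the annotated start and 20 from it on, 5′ to 3′, and capitals mark the unbroken run of C and T that includes the start base.
Rps6, chr4:86857348-86857377, minus strand: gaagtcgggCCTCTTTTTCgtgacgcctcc
Rplp2, chr7:141447641-141447670, plus strand: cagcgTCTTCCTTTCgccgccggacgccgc
Rpl7a, chr2:26910797-26910826, plus strand: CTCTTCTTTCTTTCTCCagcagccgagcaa
Rps10, chr17:27635225-27635254, minus strand: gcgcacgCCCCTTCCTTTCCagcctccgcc
Rps27, chr3:90213629-90213658, minus strand: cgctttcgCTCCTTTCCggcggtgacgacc
Rps27rt, chr9:114982720-114982749, minus strand: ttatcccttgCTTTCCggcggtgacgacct
Rps27l, chr9:66946076-66946105, plus strand: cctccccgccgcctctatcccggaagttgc
Rpl3l, chr17:24727816-24727845, plus strand: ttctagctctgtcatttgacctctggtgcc
Rpl7l1, chr17:46782637-46782666, minus strand: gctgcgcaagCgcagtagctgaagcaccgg
The first 6 start within a pyrimidine run of 6 to 21 bases, and the run of Rpl7a reaches beyond the window. The starts of Rps27l and Rpl3l lie in no such run, and that of Rpl7l1 holds a single C. The starts of Rps12, Rpl12, Rplp0, Rpl5, Rpl11, Rpl23 and Rps3, also named below but not shown, lie in no run either. A run of at least 5 bases of C or T over the start base was found at 21 of the 78 starts (26.9%), against 10.1% of all 32851 starts in the table and 5.33% of the 75 starts of mitochondrial ribosomal proteins. The annotated start can lie some bases away from the one in use, so a start without the run says only that these letters are not at that position.

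The libraries held 17119454 to 22811295 counts, so that 3 counts correspond to 0.132 to 0.175 CPM, the unit of counts scaled to library size by TMM factors. No pair of libraries agreed within sampling noise. The library labelled MIRI 2 resembled the sham libraries (Spearman rho across genes 0.969 to 0.975) and GXNI 1 (0.978) more than MIRI 1 and MIRI 3 (0.923 and 0.907). The library labelled GXNI 3 resembled MIRI 1 and MIRI 3 (0.984 and 0.985) more than GXNI 1 and GXNI 2 (0.892 and 0.952). Groups are kept here as deposited, and the results that rest most on the pair are also given without them or with their labels exchanged. The pair was picked by its resemblance in these same data, so such regrouping separates the groups by construction. Its p-values and counts past a threshold describe how far results rest on the pair and are not valid tests.

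The members differed widely in level in these hearts. Per exon length, the median over the 85 detected members was 117 RPKM (counts scaled to library size and to kb of exon), and 49 members were above 100. Rplp1, a protein of the ribosomal stalk that recruits translation factors, was highest at 1085 RPKM, followed by Rpl36 (820), the stalk base Rplp0 (534) and the small-subunit proteins Rps15 (459) and Rps2 (442). The lowest were Rpl39l (0.202), Rpl36al (0.317), Rps10 (0.777), Rpl24 (1.19) and Rpl13a (5.21). The order depends on the exon length used, which joins all annotated exons of a gene and can exceed the length of the mRNA. Rpl36, with 383 bases, had a sham mean of 310 CPM and 820 RPKM. Rps24, with 6256 bases, had a sham mean of 363 CPM but 61.4 RPKM. Rps10 and Rpl24 are core proteins of every ribosome. Rps10 averaged 35.9 counts while its 4 pseudogene entries averaged 1350, and Rpl17 averaged 948 counts while its 11 entries averaged 3260. Rps12 averaged 1748 counts beside 24 such entries that averaged 986. For such members the authors' counting may divide reads between a gene and its near copies, and their levels are uncertain. Rps27rt, an intronless copy of Rps27, is uncertain for the same reason. Rpl24 had 0 pseudogene entries, and the 1 entry of Rpl13a had 0 counts. Only entries named after the gene were taken, so copies under other symbols were not looked for. The reason for the low levels of Rpl24 and Rpl13a was not tested.

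**Figure D1:**
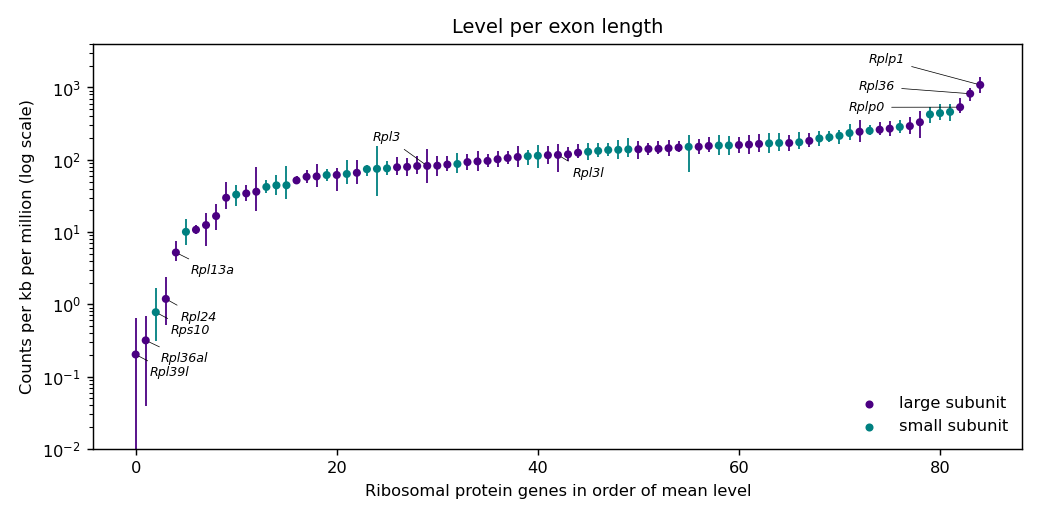
Mean level of each of the 85 detected ribosomal protein genes over the 9 libraries, in RPKM on a log scale, ordered by level, with lines from the lowest to the highest library and colours for the subunit; a line that reaches the bottom of the plot has a library at 0. The levels run from 0.202 RPKM for Rpl39l to 1085 for Rplp1, and the muscle paralog Rpl3l (116.5) lies above Rpl3 (82.2). This order rests on the division by exon length, as mean counts were 3700 for Rpl3l and 5198 for Rpl3.

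The sham mice were alike. Among the 83 members with a mean above 20 counts, the highest sham library was at most 1.25 times the lowest for 72, and the median of this ratio was 1.13. Together the members took 1.71%, 1.82% and 1.74% of all counts in sham 1 to 3. They took 2.14%, 1.78% and 2.68% in MIRI 1 to 3 and 1.59%, 2.07% and 2.42% in GXNI 1 to 3. The mean share was thus 1.76% in the sham group (SD 0.0588), 2.20% in the MIRI group (SD 0.452) and 2.03% in the GXNI group (SD 0.417), with n = 3 in each. MIRI 1, MIRI 3, GXNI 2 and GXNI 3 lay above every sham library, MIRI 2 lay among them and GXNI 1 lay below. The difference between groups was thus of the size of the spread between I/R mice, and the groups as labelled overlapped. With the labels of MIRI 2 and GXNI 3 exchanged, the MIRI shares were 2.14%, 2.42% and 2.68%, all above sham, and the GXNI shares were 1.59%, 1.78% and 2.07%, which spanned the sham range.

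The members moved together within a library. The median log2 deviation of the 83 members from their sham mean was 0.18, 0.04 and 0.53 in MIRI 1 to 3 and −0.19, 0.13 and 0.41 in GXNI 1 to 3, while the median over all genes stayed within 0.02 of 0 in each. In MIRI 3, 79 of all 86 members were above all 3 sham libraries, against 42.7% of all genes. In GXNI 1, by contrast, 72 of the 86 were below all 3 sham libraries, against 31.7% of all genes. GXNI 3 had 77 of the 86 above and MIRI 2 only 29, against 42.3% and 35.5% of all genes. In these shares, all genes are those with a mean above 20 counts. Large and small subunit genes shared these shifts, and the ratio of their summed counts ranged from 1.31 to 1.40 over the 9 libraries.

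**Figure D2:**
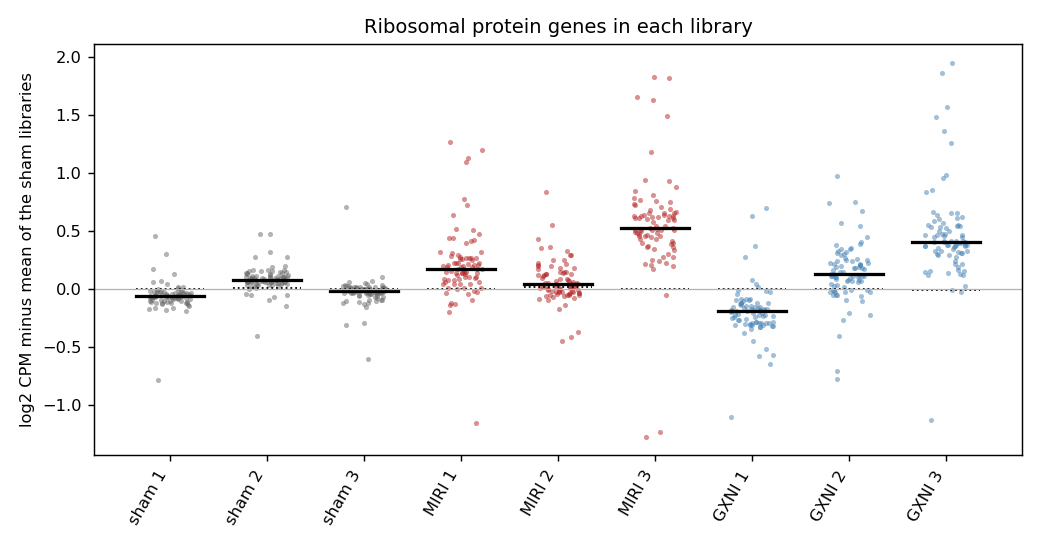
Deviation of each of the 83 ribosomal protein genes from its mean over the sham libraries, in log2 CPM, by library; points are genes, solid lines the median of the members and dotted lines the median of all genes. The members lie highest in MIRI 3 (median 0.53) and GXNI 3 (0.41) and lowest in GXNI 1 (−0.19).

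The sums of some cell type markers moved with these shares. The summed level of 8 neutrophil markers was 56.9, 29.2 and 55.1 CPM in sham 1 to 3, then 659, 26.4 and 571 in MIRI 1 to 3 and 48.4, 203 and 594 in GXNI 1 to 3. The summed level of 7 cardiomyocyte markers was 37082 to 39758 CPM in sham, and it was 41303 in MIRI 2, 33352 in GXNI 1 and 25220 to 28775 in the other 4 I/R libraries. The 4 I/R libraries with the higher share of ribosomal protein counts thus had the highest neutrophil and the lowest cardiomyocyte sums. The 7 cardiomyocyte markers did not all follow their sum, with 6 lower and 1, Actc1, higher in I/R than in sham mice. Actc1 was at 4123 to 5508 CPM in sham, and it reached 10372 in MIRI 3, 8832 in MIRI 2 and 7508 in GXNI 3. The summed level of 6 fibroblast markers was 844 to 926 CPM in sham, 616, 793 and 612 in MIRI 1 to 3 and 1115, 623 and 473 in GXNI 1 to 3, so that it was low in the same 4 I/R libraries. Of the 6, 5 were lower and 1, Pdgfra, was higher in I/R than in sham mice. Pdgfra was at 58.8 to 73.7 CPM in these 4 libraries, against 46.9 to 57.8 in sham. The summed level of 4 atrial markers was 40.3 to 84.0 CPM in sham, 259, 171 and 668 in MIRI 1 to 3 and 56.0, 99.0 and 730 in GXNI 1 to 3. Nearly all of the sum in MIRI 3 and GXNI 3, where it was highest, was Nppa (666 and 728 CPM). In these libraries Myl4 was at 1.89 and 1.63 CPM, and Myl7 and Sln were at 0, so the sum says little about the other atrial markers. Sums of 8 macrophage, 5 endothelial and 3 red blood cell markers ranged over the 9 libraries from 379 to 696, 496 to 968 and 126 to 370 CPM, and the sum of 4 adipocyte markers was 5.70 CPM at most. The part of these cells in the level of the members was not tested. The share of counts from the mitochondrial genome was 27.4% to 29.8% in sham and 23% to 27.3% in I/R mice, and with those counts left out the members took 2.35% to 2.60% in sham and 2.19% to 3.48% in I/R libraries.

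**Figure D3:**
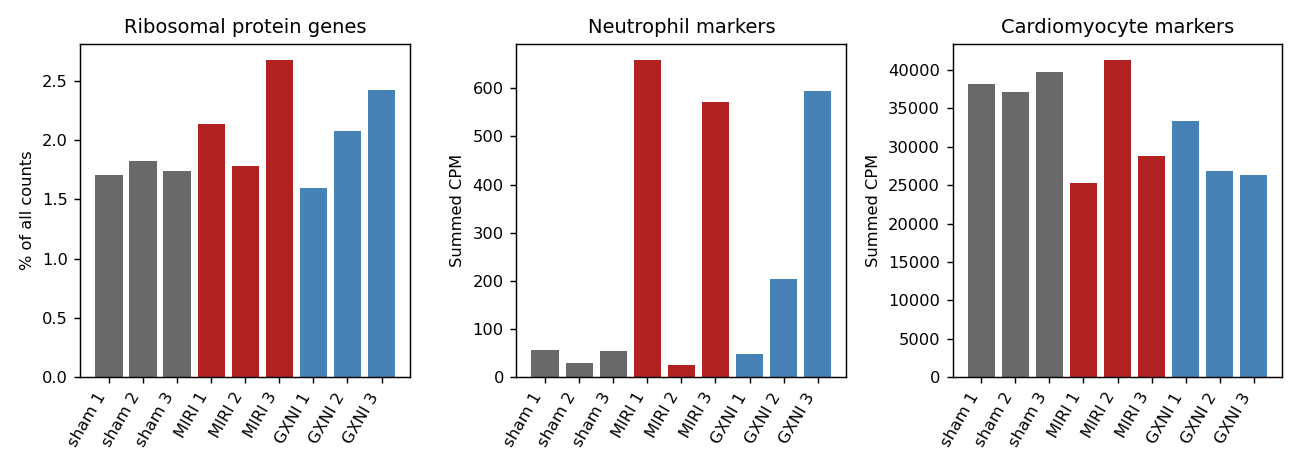
Share of all counts on the 86 ribosomal protein genes (left, %), summed CPM of 8 neutrophil markers (middle) and summed CPM of 7 cardiomyocyte markers (right) in each library, coloured by group. MIRI 2 and GXNI 1, at 1.78% and 1.59%, have neutrophil sums of 26.4 and 48.4 CPM, near the sham libraries, and cardiomyocyte sums above those of the other 4 I/R libraries.

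To ask what ischemia and reperfusion did to these genes, the 6 I/R mice were compared with the 3 sham mice. Most members had fold changes slightly above 0. The median log2 fold change of the 84 members tested was 0.21 (quartiles 0.12 and 0.32), with 77 above 0, against 0.01 over all 15207 genes (quartiles −0.31 and 0.37). It was 0.22 for the large and 0.17 for the small subunit. Under the thresholds of the study, a 1.5-fold change or more with an unadjusted p no higher than 0.01, 1 member was higher (Rpl3) and 1 was lower (Rpl3l), against 5.52% and 2.85% of all genes. These counts are at or below the share of all genes. In edgeR's quasi-likelihood test no member reached an adjusted p of 0.05 (0 of 84, with 0.0592% of all genes), 11 had an unadjusted p under 0.05 (29.5% of all genes), and DESeq2 gave 2 at an adjusted p of 0.05 (7.4% of all genes).

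Rpl3 (ENSMUSG00000060036, GRCm38 chr15:80077791-80091868, minus strand) was counted at 159.5, 153.6 and 162.0 CPM in sham 1 to 3. It reached 339.5, 232.8 and 447.1 in MIRI 1 to 3 and 162.9, 311.2 and 379.5 in GXNI 1 to 3. All 6 I/R libraries were above all 3 sham libraries, GXNI 1 by the narrowest margin. The means were 158 ± 4.31 (SD, n = 3) and 312 ± 102 CPM (SD, n = 6), and the log2 fold change was 0.98 (SE 0.28, unadjusted p = 0.00597, adjusted p = 0.0897 in edgeR's quasi-likelihood test).

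Rpl3l (ENSMUSG00000002500, GRCm38 chr17:24727820-24736143, plus strand) moved the other way. It was counted at 262.8, 267.9 and 265.2 CPM in sham, 118.8, 235.2 and 112.6 in MIRI and 185.1, 154.6 and 120.9 in GXNI mice. All 6 I/R libraries were below all 3 sham libraries, with MIRI 2 the nearest to them and MIRI 3 the lowest. The means were 265 ± 2.53 (SD, n = 3) and 155 ± 48.2 CPM (SD, n = 6), and the log2 fold change was −0.78 (SE 0.23, unadjusted p = 0.00641, adjusted p = 0.0905 in edgeR's quasi-likelihood test). Leaving out single libraries moved both genes across the threshold without a change of direction. Rpl3 ranged from 0.85 to 1.11 and its p rose to between 0.0111 and 0.0232 without any one of sham 1, sham 2, sham 3, MIRI 1, GXNI 2 or GXNI 3. Rpl3l ranged from −0.94 to −0.70 and its p rose to between 0.0113 and 0.02075 without any one of these or MIRI 3. Without MIRI 2 both reached an adjusted p under 0.05 in edgeR's test (0.0469 for Rpl3 and 0.0416 for Rpl3l), as did 11.8% of all genes. With MIRI 2 and GXNI 3 both left out, the values were 0.997 and −0.89, and Rpl3 was still higher and Rpl3l lower past the thresholds (6.6% and 3.24% of all genes).

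The balance of the pair was compared directly, as the log2 ratio of Rpl3l to Rpl3 in counts per kb of exon. Sham hearts held more Rpl3l, with ratios of 1.67, 1.75 and 1.66. The ratio was −0.56, 0.97 and −1.04 in MIRI 1 to 3 and 1.13, −0.06 and −0.70 in GXNI 1 to 3. Every I/R library was below every sham library, and in 4 of the 6 (MIRI 1, MIRI 3, GXNI 2 and GXNI 3) Rpl3 exceeded Rpl3l. On the linear scale, Rpl3l stood at 3.16 to 3.37 times Rpl3 in sham mice and at 0.487 times in MIRI 3. The size of these ratios depends on the exon lengths taken, 1643 bases for Rpl3l and 3175 for Rpl3 over all annotated exons. In plain counts, Rpl3l stood at 1.64 to 1.74 times Rpl3 in sham mice and at 0.252 times in MIRI 3. The mean was 1.69 ± 0.05 (SD, n = 3) in sham and −0.04 ± 0.91 (SD, n = 6) in I/R mice, a difference of −1.74 (two-sided exact permutation test, p = 0.0238, the lowest that 3 against 6 mice can give, and 0.2 after adjustment over 16 tests of 4 paralog pairs). The 4 libraries with the lowest ratios were those with the highest neutrophil and the lowest cardiomyocyte sums. The part of these cells in the ratio was not tested.

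**Figure D4:**
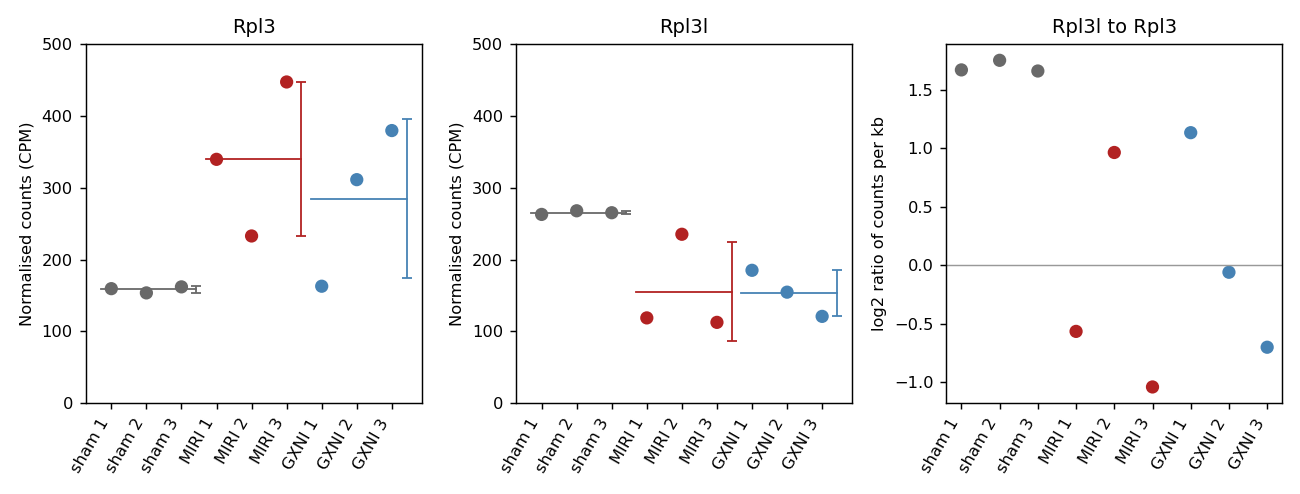
Normalised counts (CPM) of Rpl3 (left) and Rpl3l (middle), with group means and SD (n = 3) beside the points, and the log2 ratio of Rpl3l to Rpl3 in counts per kb (right), in each library. The 6 I/R libraries lie above the sham libraries for Rpl3, below them for Rpl3l, and between −1.04 and 1.13 for the ratio, against 1.66 to 1.75 in sham.

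The other paralog pairs kept their order of levels. Rpl22l1, whose mRNA is repressed by the Rpl22 protein, had a ratio to Rpl22 of −2.29 ± 0.04 (SD, n = 3) in sham and −2.25 ± 0.12 (SD, n = 6) in I/R mice (two-sided exact permutation test, p = 0.595). Rps27l, a p53 target, was higher against Rps27 by 0.38 (two-sided exact permutation test, p = 0.0476, adjusted p = 0.2), with overlapping groups. Rpl7l1, a nucleolar protein of large-subunit assembly, was higher against Rpl7 by 0.37 (two-sided exact permutation test, p = 0.0952), again with overlap. Rpl39l and Rpl36al had at most 3 counts in some library, and their ratios were not tested.

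Rpl7a, a large-subunit protein with a long pyrimidine run at its start, was the only other member whose groups did not overlap, and it is named for that, after its values were seen. It was counted at 40.8, 39.8 and 36.5 CPM in sham, 55.7, 52.7 and 88.8 in MIRI and 41.1, 65.6 and 56.9 in GXNI mice. GXNI 1 lay just above the highest sham library. The 13 pseudogene entries of Rpl7a together averaged 306 counts beside 1058 for the gene, so its reads may be divided as well and its level is uncertain. The log2 fold change of Rpl7a was 0.62 (SE 0.21, unadjusted p = 0.0151, adjusted p = 0.109 in edgeR's quasi-likelihood test). In all, 2 members were higher (8.42% of all genes) and 1 was lower (8.44%) in every I/R library than in every sham library.

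Members known for roles beyond the ribosome followed the family. Among the stalk proteins, the log2 fold change was 0.29 for Rplp0, 0.22 for Rplp1 and 0.13 for Rplp2, and it was 0.35 for Rpsa, also known as the laminin receptor. Rpl5, Rpl11 and Rpl23, which bind Mdm2 when ribosome assembly fails, were at 0.28, 0.17 and 0.25. Rps6, the substrate of the S6 kinases, was at 0.30, and Rps3, which also acts in DNA repair, at 0.17. None of these 9 passed the thresholds, and their adjusted p ranged from 0.216 to 0.549 in edgeR's test. Rpl13a, which can leave the ribosome to silence inflammatory mRNAs, was at 0.48 (SE 0.23, adjusted p = 0.19 in edgeR's test), and Rps19bp1, a regulator of the deacetylase Sirt1, at 0.56 (SE 0.24, adjusted p = 0.155). Rpl13a is among the members with the lowest levels, with a mean of 8.74 CPM in sham, and its level is uncertain.

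Some large fold changes rested on few counts or on uneven libraries. Rpl36al was at 1.33 (SE 0.56), with 0.0533 to 0.93 CPM per library, partly under the level of 3 counts. The core proteins Rps10, Rpl24 and Rpl17, named above for their low or divided counts, were at 1.12 (SE 0.53), 1.11 (SE 0.42) and 0.99 (SE 0.44). Rps27a, which is made as a fusion with ubiquitin, varied widely although well counted. Its level was 106, 135 and 63.9 CPM in sham, 234, 73.0 and 302 in MIRI and 61.9, 80.8 and 273 in GXNI mice. It was high in MIRI 1, MIRI 3 and GXNI 3 and within or near the sham range in the other 3 I/R libraries, and its log2 fold change of 0.75 (SE 0.57, adjusted p = 0.378 in edgeR's test) was within that spread. Besides Rpl3l, the lowest value belonged to the copy Rps27rt (−0.22, SE 0.37), and the small-subunit genes Rps27, Rps29 and Rps21 followed, the last at −0.01 (SE 0.20).

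The number of members that passed depended on single libraries. None passed without any one of sham 1, sham 2, sham 3, MIRI 1, GXNI 2 or GXNI 3, and only Rpl3 passed without MIRI 3. Without GXNI 1, the library with the lowest family level, 6 were higher (Rpl3, Rpl7a, Rpl7l1, Rpl12, Rps12 and Rps19bp1) and 1 was lower (Rpl3l), against 9.57% and 5.7% of all genes. Genes for the mitochondrial ribosome, which is built separately, had a median of −0.19, with 14 of 77 above 0, 1 higher and 1 lower.

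MIRI mice alone were then compared with sham mice. The median log2 fold change of 83 members was 0.29, with 80 above 0, against −0.0015 over 14644 genes. Under the thresholds of the study 3 members were higher, Rpl3, Rps12 and Rpl7l1, and none was lower, against 6.15% and 2.82% of all genes. In all, 16 members had an unadjusted p under 0.05 (28.3% of all genes) and none reached an adjusted p of 0.05 (0.0137%) in edgeR's quasi-likelihood test, while DESeq2 gave 4 (7.26%). Groups did not overlap for 26 members that were higher (17.4% of all genes) and for Rpl3l, which was lower (16.2%).

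Rps12, a protein of the small-subunit head whose reads may be divided with its pseudogenes, had 60.3, 68.3 and 63.9 CPM in sham and 86.0, 114.5 and 118.2 in MIRI 1 to 3, with all MIRI libraries higher (log2 fold change 0.73, SE 0.16, adjusted p = 0.0759 in edgeR's test). Rpl7l1 had 43.1, 40.4 and 46.5 CPM in sham and 74.3, 51.5 and 82.9 in MIRI, with MIRI 2 nearest to sham (0.69, SE 0.20, adjusted p = 0.103). Rpl3 was at 1.11 (SE 0.24, adjusted p = 0.0767) and Rpl3l at −0.77 (SE 0.29, unadjusted p = 0.0310, adjusted p = 0.144). Without MIRI 2 these 2 values became 1.32 and −1.19 (adjusted p = 0.000501 and 0.000262 in edgeR's test). The count then rose to 13 members higher and 1 lower (16.9% and 13.3% of all genes), and 36 of 84 reached an adjusted p of 0.05 (43.1%). With the labels of MIRI 2 and GXNI 3 exchanged it was also 13 higher and 1 lower (19.2% and 16.6%), 59 of 84 reached an adjusted p of 0.05 (53.3%), and the median was 0.40. As the pair was picked from these data, the values under exchange are a description and not a test. No member passed without sham 1 or without sham 3, and 1 did without sham 2. Rpl7l1 also fell short without MIRI 1 (0.64) or MIRI 3 (0.54) and under 3 other scalings, where it kept its direction.

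**Figure D5:**
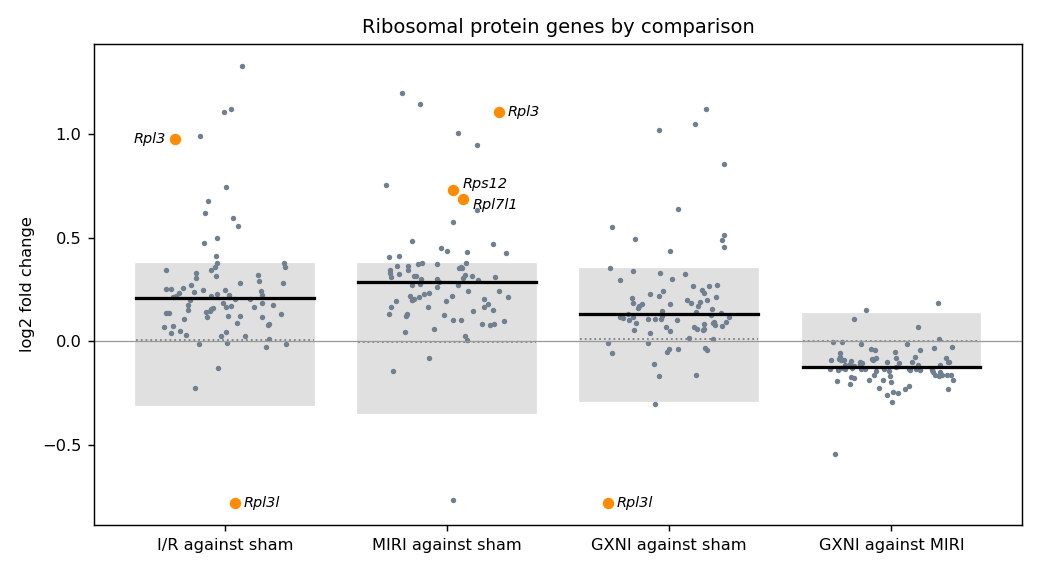
log2 fold change of each ribosomal protein gene tested in the 4 comparisons; grey boxes span the quartiles of all genes tested and dotted lines their median, solid lines are the members' median, and orange points passed a fold change of 1.5 with an unadjusted p of 0.01. The members' medians of 0.21, 0.29, 0.13 and −0.12 lie within the quartiles of all genes except the last, which lies just below the lower quartile. Rpl3l is the lowest point in the comparisons with sham, and Rpl3 lies near the top with other members above or beside it.

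To see what Guanxinning injection did after ischemia and reperfusion, GXNI mice were compared with MIRI mice and then with sham mice. All comparisons with sham use the same 3 sham mice. Between GXNI and MIRI mice, 0 of 84 members passed the thresholds (0.0203% of all genes) and 0 had an unadjusted p under 0.05 (0.318%) in edgeR's quasi-likelihood test. DESeq2 also gave 0 of 85 on both counts, with 0.0142% of all genes higher and 0.0249% lower past the thresholds. The members were on balance slightly lower in GXNI mice, with a median of −0.12 and 5 of 84 above 0. This direction rested on single libraries, since the median was 0.02 without MIRI 3 and 0.02 without GXNI 1. Rpl3 was at −0.25 (SE 0.37) and Rpl3l at −0.01 (SE 0.34), and the ratio of Rpl3l to Rpl3 differed by 0.34 (two-sided exact permutation test, p = 0.6, where 0.1 is the lowest that 3 against 3 can give). The highest value was that of Rpl36al (0.18, SE 0.53) and the lowest that of Rps27a (−0.54, SE 0.70), within the spread of its libraries given above. Groups did not overlap for 1 member, Rpl22l1, which had 21.7, 22.3 and 24.6 CPM in MIRI and 18.9, 20.3 and 21.4 in GXNI mice (1.22% of all genes were higher and 1.49% lower in this way). With the labels of MIRI 2 and GXNI 3 exchanged, the groups overlapped for Rpl22l1 as well.

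The result of this comparison turned on the 2 libraries that resemble the other group. They were picked by that resemblance in these same data, so the p-values below describe the regrouping and do not test the treatment. With both left out, the median was −0.36 and 1 member was lower (3.47% of all genes), Rps27a at −1.90, and none was higher (1.52%). Rpl3 was then at −0.72 (SE 0.34, unadjusted p = 0.0783, adjusted p = 0.302 in edgeR's test). With their labels exchanged, the median was also −0.36, 5 members were lower (Rpl12, Rpl17, Rpl7l1, Rps10 and Rps27a, against 10.7% of all genes) and 1 was higher (Rpl3l at 0.72, against 8.56%, adjusted p = 0.0241 in edgeR's test). Rpl3 was at −0.71 (SE 0.23, unadjusted p = 0.0153, adjusted p = 0.0571 in edgeR's test). An adjusted p of 0.05 was then reached by 8 members and by 24.5% of all genes. The ratio of Rpl3l to Rpl3 then differed by 1.45 (two-sided exact permutation test, p = 0.1, again the lowest possible).

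Against sham mice, GXNI mice had a median of 0.13, with 70 of 83 members above 0. None was higher (2.67% of all genes) and Rpl3l was lower (1.54%), at −0.78 (SE 0.17, unadjusted p = 0.00259, adjusted p = 0.219 in edgeR's quasi-likelihood test). Rpl3 was at 0.86 (SE 0.30, unadjusted p = 0.0236, adjusted p = 0.223). In edgeR 4 members had an unadjusted p under 0.05 (19.8% of all genes) and none an adjusted p of 0.05, while 1 higher and 1 lower member passed the thresholds in DESeq2 (3.56% and 1.46% of all genes). The GXNI libraries overlapped none of the sham libraries for 3 higher members (13.9% of all genes), Rpl3, Rpl7a and Rpl24, and for 1 lower among those tested, Rpl3l (15.5%). Without GXNI 3 the median became −0.04 with Rpl3l still lower at −0.64 (1.46% of all genes) and none higher (2.11%), and with the labels exchanged it was −0.02, with Rpl3l at −0.47 and no member past the thresholds (2.16% of all genes higher and 1.56% lower). Without GXNI 1, 5 members were higher and Rpl3l lower (10.7% and 7.08% of all genes). Without any one of sham 1, sham 2, sham 3 or GXNI 2 none passed, and the p of Rpl3l was then 0.0104 to 0.0117.

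Other genes of translation were read from lists. Of 36 initiation factors, 2 were higher in I/R than in sham mice, Eif1a (log2 fold change 1.76, SE 0.40), which helps to select the start codon, and the helicase Eif4a1 (1.40, SE 0.37), against 5.52% of all genes. MIRI mice had 5 higher against 6.15% of all genes, these and Eif2s2 (0.60), Eif5 (1.11) and Eif6 (1.35), the last of which keeps the subunits apart. None of the 36 was lower, and their median was 0.17 in I/R mice. Of 10 other mRNAs with a TOP start none passed, with a median of 0.37. Among them the poly(A)-binding protein gene Pabpc1 was at 0.79 (SE 0.32) and the nucleolar chaperone gene Npm1 at 0.64 (SE 0.24), both with an unadjusted p under 0.05 but short of the threshold. None of 7 elongation factors passed (median −0.03). Of 16 genes tested around mTORC1 and LARP1, only Myc, an activator of ribosome production, was higher (2.90, SE 0.87). Of 4 genes of the Mdm2 and p53 branch none passed, with Cdkn1a, the p53 target that halts the cell cycle, at 1.90 (SE 0.61) and Trp53 at 0.96 (SE 0.31). Adjusted p-values of the genes that passed were 0.0852 for Eif1a, 0.0875 for Eif4a1 and 0.0937 for Myc in edgeR's test of I/R against sham. No gene of these lists passed between GXNI and MIRI mice.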

How the data were processed

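Total RNA of heart tissue (TRIzol) was sequenced. Per the labels, reads were aligned with HISAT2 to mm10 and counted with featureCounts of Subread, and the authors deposited raw read counts per gene for the 9 libraries. Strand, multi-mapping and annotation release are not given in the sources used here. Of 54532 identifiers, 54495 were paired with symbols, places and exon lengths in GENCODE M21 (GRCm38). The members and lists were chosen with earlier results of these data known.

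Each comparison was fitted to its own libraries with edgeR 4.0.16 (quasi-likelihood, TMM, filterByExpr, no covariate; R 4.3.3), with Benjamini-Hochberg adjustment over all genes tested. Calls took the study's thresholds. CPM used TMM factors over 9 libraries, and RPKM used union exon length. DESeq2 1.42.0 was an alternative. Ratios of paralogs (counts plus 0.5, per kb) were compared by exact permutation tests (scipy 1.17.1), for pairs over 3 counts throughout. The rule for named genes took the paralog pairs, stalk proteins and Rpsa, members with further known roles, the 5 highest and lowest by fold change in each comparison and by level, members past the thresholds and Rps19bp1; the text gives those on which comparisons turn. Scripts were tested on simulated data. Alternatives were other scalings, no filter, 1 fit of all 9 libraries, a replicate block, single libraries left out, and MIRI 2 and GXNI 3 left out or exchanged. The result of 1 gene list is not reported here.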

Additional observations from a re-analysis of the deposited data

How the results depend on the processing

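Values are log2 fold changes or log2 ratio differences unless named as counts. Of members past the thresholds, 2 in I/R against sham became 0 by adjusted p of 0.05 and 1 when all 9 libraries were fitted together, and 0 to 7 with single libraries left out. In MIRI against sham, 3 became 0 by adjusted p, 5 in DESeq2, 1 with all 9 libraries, 14 without MIRI 2 and GXNI 3, 14 with their labels exchanged, and 0 to 14 with single libraries left out. In GXNI against MIRI, 0 became 1 without the pair and 6 exchanged, and the median of −0.12 became −0.36 in both. In GXNI against sham, 1 became 0 by adjusted p, 2 without the filter, 2 in DESeq2, 0 with all 9 libraries, 0 exchanged, and 0 to 6 with single libraries left out. Over all 15207 genes, the fit of all 9 libraries gave 622 higher and 380 lower in I/R and 535 and 265 in MIRI against sham. It gave 299 and 142 in GXNI against sham. DESeq2 gave 1491 and 760 of 27898 genes in MIRI against sham. Without the filter, GXNI against sham gave 999 and 426 of 27966. Exchanging the pair for paralog ratios and shares, and leaving it out for shares, was added after the data were seen. The cause was not tested, except that fewer libraries leave fewer degrees of freedom.

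Directions turned for members near 0. Rps21 in I/R was 0.044 by library totals and −0.13 to 0.13 with single libraries left out, and Rps27rt ranged from −0.41 to 0.035 in I/R and from −0.42 to 0.21 in MIRI against sham. Rpl21 in MIRI against sham was −0.092 without the pair, and −0.29 to 0.43 with single libraries left out. In GXNI against MIRI, Rpl3l was 0.032 by totals, 0.052 with the replicate block, 0.57 without the pair, 0.72 exchanged and −0.21 to 0.42 with single libraries left out. Rpl36al was −0.36, −0.59 and −0.33 to 0.54 in the last 3 of these, and Rpl3 ranged from −0.51 to 0.029.

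For paralog ratios in I/R against sham, Rpl3l to Rpl3 was −1.83 without the pair (exact permutation test, p = 0.0571) and −1.97 to −1.54 with single libraries left out, Rps27l to Rps27 was 0.34 and 0.29 to 0.45, and Rpl7l1 to Rpl7 was 0.27 to 0.47. With fewer sham mice such a test cannot reach 0.05. In GXNI against MIRI, single libraries left out gave −0.17 to 0.93 for Rpl3l to Rpl3, −0.15 to 0.083 for Rps27l to Rps27 (0.024 exchanged) and −0.30 to 0.048 for Rpl7l1 to Rpl7. Rpl22l1 to Rpl22 exchanged was 0.061 there and 0.073 against sham.

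Correlations between the deviations of same-numbered mice ranged from −0.51 to 0.77, and those of differently numbered mice from −0.83 to 0.79. With 3 mice per group and 2 libraries that resemble the other group, these values cannot decide whether the numbers pair samples. The replicate block gave 2 members past the thresholds in I/R, 2 in MIRI against sham, 0 in GXNI against MIRI and 1 in GXNI against sham, with Rpl3 at 0.93 and Rpl3l at −0.82 in I/R. Over all genes it gave 912 higher and 614 lower of 15699 in I/R and 734 and 385 of 15254 in MIRI against sham. It gave 3 and 1 of 15311 in GXNI against MIRI and 366 and 237 of 15209 in GXNI against sham. Of the other results under the alternatives, 712 values of named genes and 114 paralog differences kept their direction and side of the threshold, 39 counts stayed within 1.5 times, and 64 medians and 38 shares moved by less than the spread between libraries. Among these medians 5 changed sign, GXNI against MIRI to 0.023 without MIRI 3 and 0.018 without GXNI 1, and GXNI against sham to −0.037 without GXNI 3, −0.037 without the pair and −0.020 exchanged. Counting error limits Rpl36al, Rpl39l, Rps10 and Rpl24.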
